A study of Homo sapiens with 4 samples.

Results

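The genes described here are 33 protein-coding genes of ribosome biogenesis that are widely counted among the targets of the MYC family. They were given as a list of names, matched by symbol to the GENCODE annotation on GRCh37 (hg19), and all 33 were found among 20162 protein-coding genes. Nucleosomes had been mapped by MNase-seq, in which micrococcal nuclease cuts the DNA between nucleosomes and the protected fragments are sequenced. The cells were BE(2)C (labelled BE2C, genotype wild type), an established human neuroblastoma line in which MYCN is amplified. A control siRNA (2 libraries, replicates 1 and 2) was compared with an siRNA against MYCN (2 libraries, replicates 1 and 2), each given with Lipofectamine 2000. The labels put the siRNA at 80 nM, and the methods of the study give a smaller value, so the dose is uncertain. Every library therefore came from transfected cells of 1 line, and all carry the MYCN amplification. The study's methods call the replicates biological, and neither source says what separated them (a culture or a transfection), so the p-values below measure the spread between these libraries. The 2 libraries of each group also differed in depth, so this spread may include effects of depth.

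Ribosome biogenesis begins in the nucleolus, where RNA polymerase I copies the ribosomal DNA into a long precursor RNA. Small nucleolar ribonucleoproteins (snoRNPs) modify that precursor, and assembly factors fold and cut it into the RNAs of the small and the large ribosomal subunit. MYC and MYCN bind DNA with their partner MAX at the E-box, and ribosome biogenesis genes are a textbook example of genes that MYC proteins activate in growing and in cancer cells. A promoter in use usually has a nucleosome-free region (NFR) over the transcription start site (TSS), flanked upstream by the -1 nucleosome and downstream by the +1 nucleosome. These libraries hold nucleosomal DNA, so neither the knockdown of MYCN nor the expression of these genes was measured in them. The study itself reports lower MYCN after knockdown by qPCR, Western blot and RNA-seq. From promoters whose state of the active histone mark H3K9ac changed, it proposes that the knockdown suppressed ribosome biogenesis.

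The lists of called nucleosomes held 147726171 (control library 1), 242544884 (control library 2), 147370973 (knockdown library 1) and 239257113 reads (knockdown library 2). The library numbered 2 was the deeper one in both groups. A nucleosome was listed only with 6 reads or more, and more places are filled in a deeper library. The dyads listed in a library were at least 147 bp apart, so listed nucleosomes never overlapped. A place without a listed nucleosome may thus hold up to 5 reads, or more where a listed nucleosome overlaps it. Reads over the MYCN promoter were 89.51 to 118.36 times those of the median promoter in the 4 libraries, the only check of the line's label made here. The highest count of a listed nucleosome was 1764 reads in each of the 4 libraries. Whether such a ceiling lowered the MYCN ratios was not tested.

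E-box hexamers were looked for first, because MYC proteins bind them. The motif searched was CACGTG, which reads the same on both strands. It was present in the 300 bases from 250 before to 50 after the TSS in 14 of the 33 genes (42.4%). The share was 8.74% of all protein-coding promoters, 7.59% of 79 cytosolic ribosomal protein genes and 31.3% of 115 other ribosome biogenesis factors. Within 1 kb on either side of the TSS, 21 of the 33 genes had at least 1 hexamer (63.6%), beside 29.2% of all promoters, 45.6% of the ribosomal protein genes and 64.3% of the other ribosome biogenesis factors. The 14 genes held 15 hexamers in the 300 bases, and 13 of these lay within 50 bp of the TSS (86.7%). Of the 1998 hexamers in the same stretch of all promoters, 35.0% lay that close, and 30 of the 39 hexamers of the other ribosome biogenesis factors did (76.9%). These counts describe letters in the reference genome, and binding of MYCN was not measured here.

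The promoters below are shown because their hexamer lies close to the TSS and, in the first 7, was free of any called nucleosome in all 4 libraries. Each line gives 100 bases of GRCh37 on the strand of the gene, 5′ to 3′, and the TSS is base 51. Capitals mark the hexamer. RRP9 is on chromosome 3 (51975871 to 51975970, minus strand), NOP10 on chromosome 15 (34635288 to 34635387, minus), UTP20 on chromosome 12 (101673833 to 101673932, plus) and GNL3 on chromosome 3 (52719998 to 52720097, plus). PES1 is on chromosome 22 (30987848 to 30987947, minus), BYSL on chromosome 6 (41889187 to 41889286, plus), RRP12 on chromosome 10 (99161048 to 99161147, minus) and FBL on chromosome 19 (40336970 to 40337069, minus). FBL is shown for contrast, since a nucleosome of 9 reads covered its hexamer in MYCN knockdown library 2.
RRP9: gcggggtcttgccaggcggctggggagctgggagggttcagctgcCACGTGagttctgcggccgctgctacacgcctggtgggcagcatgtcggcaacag
NOP10: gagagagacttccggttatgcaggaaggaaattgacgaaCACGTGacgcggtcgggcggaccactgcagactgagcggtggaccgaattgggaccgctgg
UTP20: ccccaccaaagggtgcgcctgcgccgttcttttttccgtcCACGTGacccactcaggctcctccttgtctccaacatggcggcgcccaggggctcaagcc
GNL3: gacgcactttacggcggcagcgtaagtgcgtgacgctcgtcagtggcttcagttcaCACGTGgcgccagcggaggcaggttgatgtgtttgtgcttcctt
PES1: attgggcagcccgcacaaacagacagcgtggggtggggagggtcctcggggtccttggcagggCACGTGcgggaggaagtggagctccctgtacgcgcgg
BYSL: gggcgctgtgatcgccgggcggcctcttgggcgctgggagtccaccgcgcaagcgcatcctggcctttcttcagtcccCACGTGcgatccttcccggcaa
RRP12: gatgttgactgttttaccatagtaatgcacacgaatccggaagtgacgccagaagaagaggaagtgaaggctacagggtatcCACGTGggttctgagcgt
FBL: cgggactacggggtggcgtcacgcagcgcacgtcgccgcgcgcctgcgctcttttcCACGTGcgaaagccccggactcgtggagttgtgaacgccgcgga
In RRP9 the last base of the hexamer is the TSS itself. The hexamers of NOP10 and UTP20 start 11 and 10 bp upstream of the TSS. Those of GNL3 and FBL start 6 bp, that of PES1 13 bp, that of BYSL 28 bp and that of RRP12 32 bp downstream, in the 5′ UTR of exon 1.

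Nucleosomes covered few of the hexamers near the TSS. Of the 15 hexamers in the 300 bases, 3 and 1 were covered by a called nucleosome in control libraries 1 and 2, and 2 and 4 in knockdown libraries 1 and 2. Across all promoters 33.6% and 38.3% were covered under control siRNA against 31.6% and 38.8% upon knockdown. The 2 sets are not matched for position: 86.7% of the members' hexamers lay within 50 bp of the TSS, beside 35.0% of all. Coverage at equal distance from the TSS was not tested. Of the 15, 8 were uncovered in all 4 libraries (53.3%), beside 42.3% of the 1998 hexamers of all promoters. The share was 61.5% of 39 hexamers for the other ribosome biogenesis factors, and 5 of 6 were uncovered in the ribosomal protein genes. The other 21 hexamers of these genes, up to 1 kb from the TSS, were covered more often, 10 and 11 of them under control siRNA against 16 and 12 upon knockdown. Among the latter were the 5 hexamers in intron 1 of NCL, of which 3 were covered in all 4 libraries, by nucleosomes of 10 to 30 reads. NCL encodes nucleolin, an abundant nucleolar phosphoprotein that binds precursor ribosomal RNA.

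Coverage of a hexamer followed the groups at 2 sites, which were singled out after their values were seen. In GAR1, which encodes a core protein of the box H/ACA snoRNPs that guide pseudouridylation, the hexamer 31 bp downstream of the TSS was uncovered in both controls. It was covered by a nucleosome of 16 and 22 reads in knockdown libraries 1 and 2. This was its +1 nucleosome, so its position describes the same change again. The +1 dyad of GAR1 was 108 and 131 bp downstream of the TSS under control siRNA against 83 and 94 bp upon knockdown, so the groups did not overlap. The share of all promoters whose +1 dyads did not overlap was not computed. The mean change of -31.0 bp (SE 14.3) had an unadjusted p of 0.113 and an adjusted p of 0.943 in the limma fit across 17393 promoters. In NOP58, a core protein of the box C/D snoRNPs that guide ribose methylation, the hexamer 390 bp downstream of the TSS in intron 1 was uncovered in the controls and covered by nucleosomes of 14 and 19 reads upon knockdown. Some of these states rest on a few bp. A nucleosome covers the hexamer when its dyad is within 73 bp of the hexamer's centre, and the nearest dyad was 74.5 and 97.5 bp away in the controls of GAR1 and 74.5 and 76.5 bp away in those of NOP58. None of the 36 hexamers of these genes went the opposite way. Over all promoters the same pattern was found at 1.85% of hexamers in the 300 bases and 3% of those farther out, and the opposite at 1.95% and 3.18%.

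Promoters of the ribosome biogenesis genes had few nucleosomes over the TSS. The NFR window covered the 200 bp before and the 50 bp after the TSS, and it was counted as empty when no nucleosome lay with at least 80% of its length inside. With control siRNA it was empty in 32 and 27 of the 33 genes (libraries 1 and 2), and with MYCN siRNA in 31 and 27. Of 20078 promoters, 58.4% and 52.6% were empty under control siRNA against 60.3% and 52.1% upon knockdown. In 25 of the 33 genes the window was empty in all 4 libraries (75.8%), beside 32.3% of all promoters, 88.6% of the ribosomal protein genes and 74.8% of the other ribosome biogenesis factors. No gene of the 33 had a nucleosome there in all 4 libraries, whereas 19.9% of all promoters did. The 2 deeper libraries had the fewest empty windows in both groups. After every library was thinned to the smallest total, 27 of the 33 genes were empty in all 4 (81.8%), beside 38.5% of all promoters. The share was 92.4% of the ribosomal protein genes and 84.35% of the other factors. The count depended on the definition: 14 genes (42.4%) were empty in all 4 when 50% of a nucleosome inside sufficed, beside 19.1% of all promoters. Here the ribosomal protein genes had 72.15% and the other factors 44.35%. At the most upstream TSS it was 16 genes (48.5%), beside 27.2%. There 51 of 79 ribosomal protein genes and 69 of 115 other factors were empty. In each of these alternatives the share of the 33 genes was below those of the ribosomal protein genes and the other factors. These differences were not tested.

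**Figure D1:**
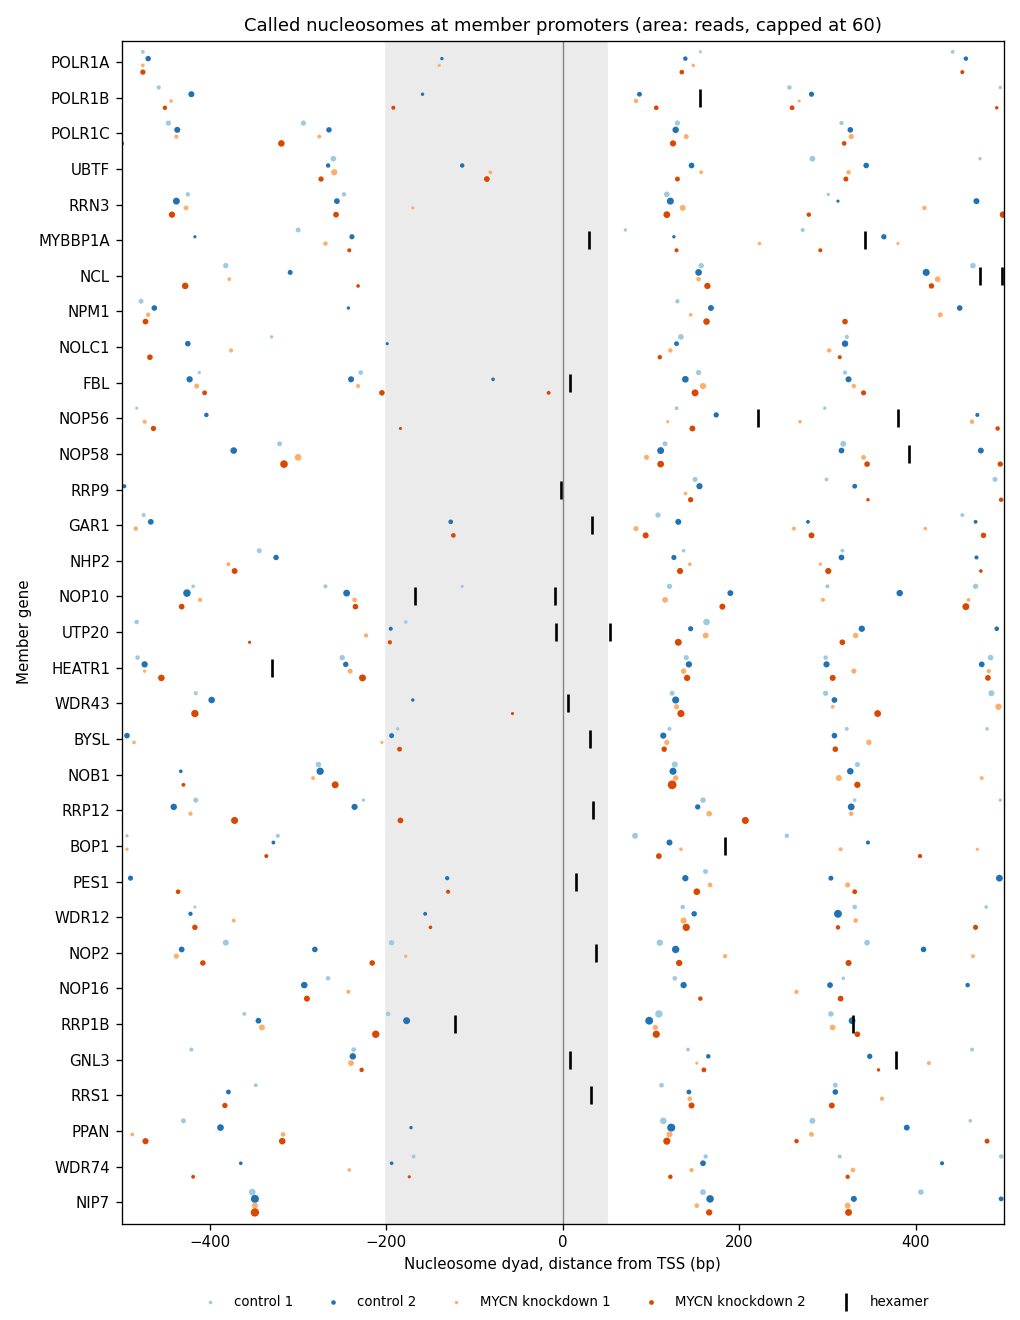
Called nucleosomes at the 33 promoters, as the distance of the dyad from the TSS in bp (x axis) for each gene (y axis), with 1 row of points per library, point area by reads (capped at 60), the NFR window shaded and E-box hexamers as black bars. The window held a nucleosome by the 80% rule in 8 genes, in at least 1 library each, and 13 of the 15 hexamers near the TSS lie within 50 bp of it.

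No member's window changed state with the groups: 0 of the 33 were empty in both controls and filled in both knockdown libraries, and 0 went the other way. Over all promoters 2.21% were filled upon knockdown only and 2.41% in the controls only. The 8 genes with a nucleosome in some library had 6 to 20 reads in it. FBL, which encodes the methyltransferase fibrillarin of the box C/D snoRNPs, was empty in both libraries numbered 1 and held 8 and 9 reads in control library 2 and knockdown library 2. GAR1 (13 and 13 reads), PES1 (11 and 10 reads) and WDR12 (9 and 8 reads) showed the same pattern, so these 4 windows followed the replicate number and the depth. PES1 and WDR12 are, with BOP1, the subunits of the PeBoW complex, which matures the large subunit. UBTF, the factor that shapes ribosomal DNA chromatin for RNA polymerase I, was empty in control library 1 but had a nucleosome in the other three, of 12 reads (control) and of 9 and 20 reads (knockdown). POLR1A, the largest subunit of RNA polymerase I, held 7 reads in control library 2 and 6 in knockdown library 1 and was empty in the other two. NOP10, another H/ACA core protein, held 6 reads in control library 1 only, and WDR43, a small subunit assembly factor, held 6 in knockdown library 2 only.

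The mean profile over the 33 genes fell almost to 0 at the TSS. Coverage by called nucleosomes, relative to the mean of the region plotted, had its minimum in the window at 0 in both controls and in knockdown library 1, and at 0.018 in knockdown library 2. For all promoters the minimum was 0.536 to 0.573. The highest point downstream of the TSS was 1.86 to 2.20 for the 33 genes and 1.35 to 1.501 for all promoters. With 33 genes the curves were uneven away from the TSS, and the 4 libraries crossed there in no order of group.

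**Figure D2:**
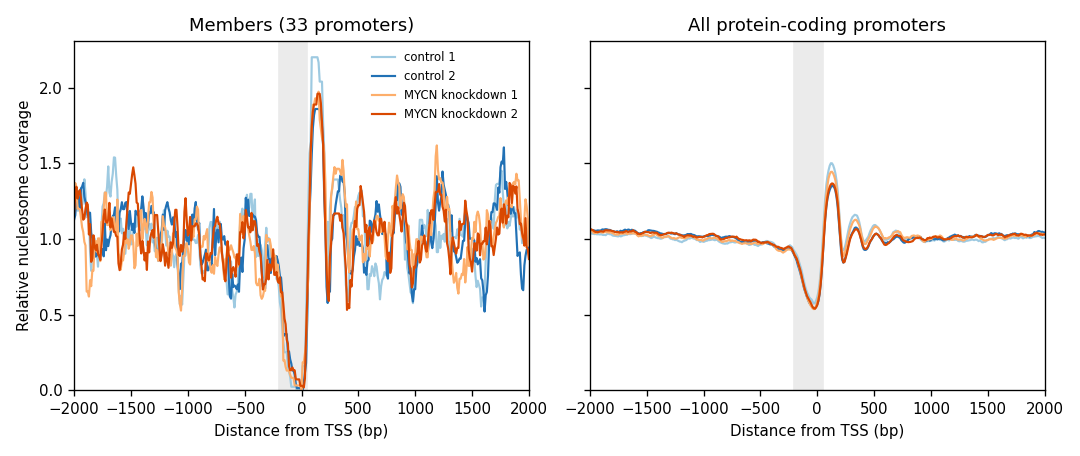
Relative coverage by called nucleosomes (y axis) against the distance from the TSS in bp (x axis), averaged over the 33 genes (left) and over all protein-coding promoters (right), 1 line per library, with the NFR window shaded. Coverage in the window averages 0.215 to 0.275 for the 33 genes and 0.684 to 0.731 for all promoters.

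The stretch without nucleosomes was long. The gap from the end of the nearest nucleosome upstream to the start of the +1 nucleosome had a median of 290 and 242 bp under control siRNA against 345 and 235 bp upon knockdown over the 33 genes. The medians of 17383 promoters with such a gap in every library were 154, 133, 162 and 131 bp in the same order. The gap was at least 147 bp, room for 1 more nucleosome, in all 4 libraries for 23 of the 33 genes (69.7%) and for 26.8% of all promoters. The share was 83.8% of 74 ribosomal protein genes and 61.8% of 110 other ribosome biogenesis factors with a gap in every library. Medians of the ribosomal protein genes ran from 243.5 to 304 bp, and those of the other factors from 206.5 to 248.5 bp. A long gap was thus shared by both lists. The replicates differed more than the groups here, and the members' medians at equal depth were 301.5 and 275 bp under control siRNA against 325 and 284.5 bp upon knockdown, over the 30 genes with a gap in every thinned library.

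**Figure D3:**
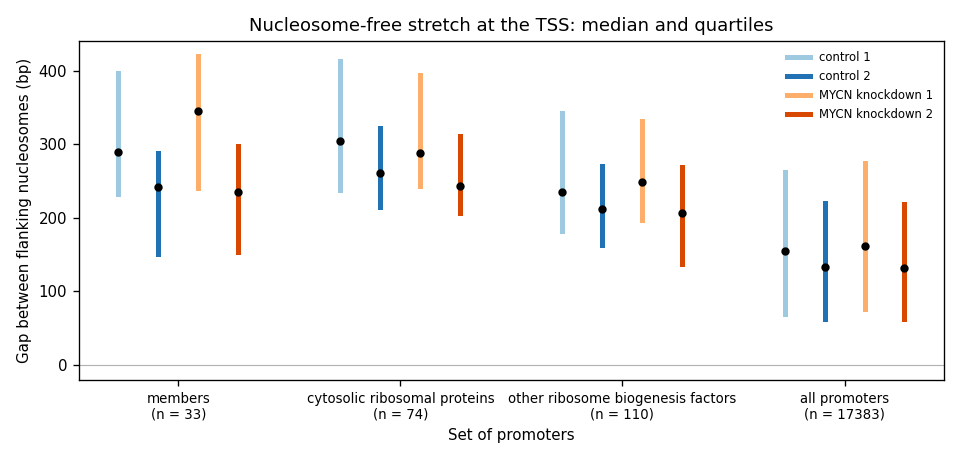
Gap between the nucleosomes flanking the TSS in bp (y axis) for 4 sets of promoters (x axis), with black points for the median and bars from the lower to the upper quartile, 1 bar per library. The members' medians, 235 to 345 bp, lie above those of all promoters, 131 to 162 bp, in every library.

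RRP9, which encodes a protein specific to the U3 snoRNP, had the widest gap on average, with 791 and 505 bp under control siRNA against 522 and 579 bp upon knockdown. The TSS of PARP3 lies 459 bp upstream of RRP9 in the opposite direction, and the gap reached past that start in control library 1 and knockdown library 2. RRS1, a large subunit factor with a single-exon gene, had 313 and 375 bp under control siRNA against 658 and 382 bp upon knockdown. NPM1, the nucleolar chaperone nucleophosmin, had 461 and 264 bp (controls) and 468 and 489 bp (knockdown). The narrowest mean gap was that of FBL (236 and 71 bp in the controls, 244 and 19 bp upon knockdown), where the nucleosome that appeared in the libraries numbered 2 cut the gap short. Next came BYSL, a small subunit factor, with 161 bp in both controls and 176 and 153 bp upon knockdown, values within 23 bp of each other. Genes with a hexamer in the 300 bases had a median of 248.1 bp (mean of libraries, 14 genes) and those without 297.2 bp (19 genes). The 11 genes with a divergent coding TSS in the promoter window, 2 kb before to 1 kb after the TSS, had a median of 272.2 bp and the other 22 genes 285 bp. For these 11 genes (POLR1A, POLR1C, RRP9, NOP10, BYSL, BOP1, WDR12, NOP16, RRP1B, GNL3 and NIP7), reads cannot be assigned to one of the neighbours.

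The +1 nucleosome varied little in position. Its dyad had a median of 130 and 139 bp downstream of the TSS under control siRNA against 140 and 133 bp upon knockdown, beside 123 to 124 bp for all promoters. Over the 4 libraries the dyad of a gene spanned 23 bp at the median of the 33 genes, beside 55 bp for all promoters, 14 bp for ribosomal protein genes and 29 bp for the other ribosome biogenesis factors. A span of 20 bp or less was seen in 14 genes (42.4%), beside 22.1% of all promoters, 68.9% of the ribosomal protein genes and 34.5% of the other factors. NOB1, an endonuclease that makes the 3′ end of 18S ribosomal RNA, had the smallest span, with dyads at 127 and 125 bp under control siRNA against 128 and 124 bp upon knockdown. HEATR1, a small subunit processome factor, followed with 140, 143, 137 and 141 bp, and then BYSL with 121, 114, 118 and 115 bp. POLR1B, the second largest subunit of RNA polymerase I, had the largest span, with 257 and 87 bp under control siRNA against 83 and 106 bp upon knockdown. In control library 1 no dyad of POLR1B was called between the TSS and the one at 257 bp. UBTF (283 bp in control library 1, 130 to 157 bp in the others), MYBBP1A (71 to 223 bp), a nucleolar MYB-binding protein, and NOP16 (265 bp in knockdown library 1, 127 to 156 bp in the others) also spanned over 130 bp.

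Fuzziness is the SD in bp of the read midpoints around a dyad, and lower values mean better defined positions. At the +1 nucleosome its median was 26.9 and 31.2 bp under control siRNA against 29.5 and 32.7 bp upon knockdown for the 33 genes, beside 32.9, 34.7, 33.05 and 34.6 bp for all promoters. It was lower than that of all promoters in each library, and higher in the deeper libraries in both sets. In the same order the medians were 26.1, 29.0, 23.9 and 28.8 bp for ribosomal protein genes, lower than those of the 33 genes in each library. For the other ribosome biogenesis factors they were 29.85, 31.7, 29.9 and 31.3 bp. The best defined +1 nucleosome was that of NOB1 in control library 1 (11.9 bp), which had 29.5 bp in control library 2 and 23.8 and 28.25 bp upon knockdown. A single library thus says little about one nucleosome, which held 6 to 46 reads at the +1 position of these genes.

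Reads over the whole promoter window were counted next. NIP7, a processing factor of precursor ribosomal RNA, had the most, with 215 and 384 reads under control siRNA against 204 and 339 reads upon knockdown (1.46 RPM on average, scaled to the called reads of the library). NOP56, the partner of NOP58 in the box C/D snoRNPs, had the fewest, with 44 and 99 reads under control siRNA against 66 and 136 upon knockdown (0.431 RPM). All windows have the same length, but the copy number of the locus enters these levels. Relative to 50 kb on either side, BOP1 had the highest mean ratio (1.095), followed by WDR43 (1.08), while NIP7 had 1.002 and NOP56 the lowest, 0.573. The median ratio of the 33 promoters was 0.801 and 0.868 under control siRNA against 0.866 and 0.833 upon knockdown, beside 0.924 to 0.948 for all promoters. Duplicated segments related to RRN3, the initiation factor TIF-IA of RNA polymerase I, lie elsewhere on its chromosome, and its reads (160, 357, 176 and 296) are uncertain for that reason. BOP1 has no canonical transcript marked in this annotation, and its most upstream TSS was used.

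**Figure D4:**
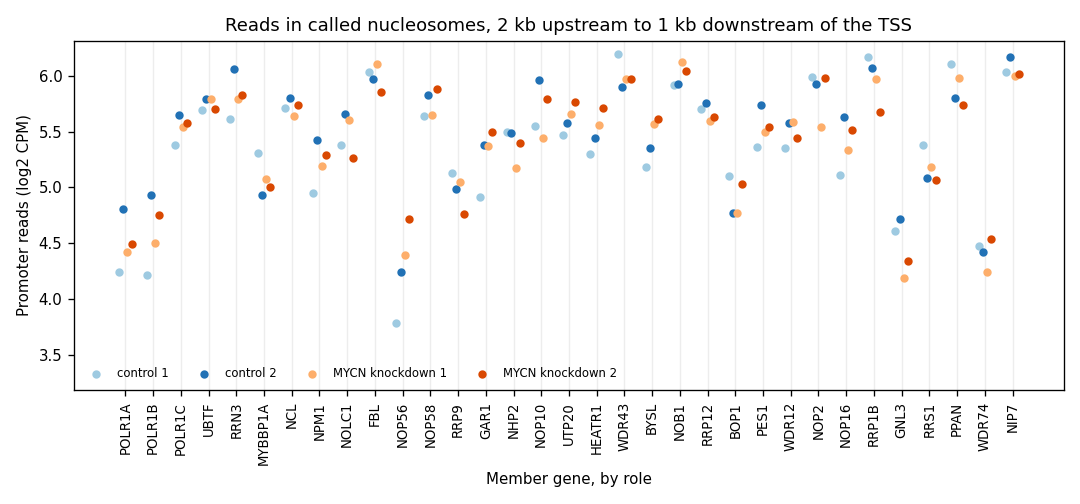
Reads in called nucleosomes over the promoter window, 2 kb before to 1 kb after the TSS, as log2 CPM (y axis), for each gene ordered by role (x axis), 1 point per library. NOP56 is lowest and NIP7 highest on average. Both knockdown libraries lie on the same side of both controls in 10 of the 33 genes (30.3%), beside 30.4% of all promoters.

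Whether MYCN knockdown changed these reads was tested with edgeR's quasi-likelihood test across 20105 promoters. None passed a Benjamini-Hochberg adjusted p of 0.05 (0% of all promoters), and 633 promoters (3.15%) had an unadjusted p under 0.05. DESeq2 also called 0, with 210 promoters under an unadjusted 0.05. All 33 genes passed the filter of a mean of 10 reads, 0 of them were called, and 2 had an unadjusted p under 0.05. The adjusted p of every one of the 33 was 0.999. Log2 changes (knockdown minus control) ran from -0.40 in GNL3 to 0.54 in NOP56, with 11 above 0 and 22 below and a median of -0.06. The median over all promoters was -1e-04, that of ribosomal protein genes 0.05 and that of the other ribosome biogenesis factors 0.02. Of the 115 other ribosome biogenesis factors, 63 were above 0 and 52 below, 0 were called and 0 had an unadjusted p under 0.05. The sign of the members' median was not stable: it was 0.05 without control library 2.

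RRP1B, which takes part in large subunit maturation, had the smallest unadjusted p. It held 236 and 359 reads under control siRNA against 200 and 267 upon knockdown, or 6.17 and 6.07 against 5.97 and 5.68 log2 CPM. Both knockdown libraries were below both controls, with a log2 change of -0.30 (SE 0.143, unadjusted p 0.042, adjusted p 0.999 in edgeR). BYSL held 119 and 218 reads under control siRNA against 151 and 255 upon knockdown, or 5.19 and 5.36 against 5.57 and 5.61 log2 CPM. Here both knockdown libraries were above both controls (log2 change 0.31, SE 0.156, unadjusted p 0.0492, adjusted p 0.999 in edgeR). HEATR1, with 129 and 231 reads against 150 and 273, was also higher in both knockdown libraries (log2 change 0.27, SE 0.152). NOP56 had the largest log2 change, 0.54 (SE 0.337), with both knockdown libraries above both controls on few reads. GAR1, with 98 and 222 reads against 131 and 235, overlapped between the groups (log2 change 0.25, SE 0.169). The last 3 had unadjusted p-values of 0.0839, 0.114 and 0.142 in edgeR, and the adjusted p was 0.999 for all 5.

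Further genes, taken for being well known, had log2 changes from -0.06 to 0.02. NCL held 172 and 297 reads under control siRNA against 159 and 279 upon knockdown (log2 change -0.06, SE 0.142). NPM1 held 101 and 228 against 116 and 203 (log2 change 0.02, SE 0.174), and FBL held 215 and 335 against 220 and 302 (log2 change -0.02, SE 0.142). In these 3 genes the groups overlapped on the log2 scale. POLR1B held 60 and 162 reads under control siRNA against 71 and 139 upon knockdown, and its log2 change of -0.0075 (SE 0.276) was far below the difference between its replicates. UBTF held 170 and 295 against 176 and 272 (log2 change -0.0047, SE 0.142). BOP1 held 112 and 144 against 86 and 170 (log2 change -0.0087, SE 0.217).

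By role, the log2 change was above 0 in 1 of 6 genes of RNA polymerase I transcription (POLR1A, POLR1B, POLR1C, UBTF, RRN3 and MYBBP1A), in 1 of 3 nucleolar phosphoprotein genes (NCL, NPM1 and the snoRNP chaperone NOLC1), and in 2 of 4 box C/D genes (FBL, NOP56, NOP58 and RRP9). It was above 0 in 1 of 3 box H/ACA genes (GAR1, NHP2 and NOP10). Of the 6 small subunit genes (UTP20, HEATR1, WDR43, BYSL, NOB1 and RRP12) 4 were above 0, with changes from -0.11 to 0.31. Of the 11 large subunit genes 2 were above 0, with changes from -0.40 to 0.03. These 11 were BOP1, PES1, WDR12, the methyltransferase NOP2, NOP16, RRP1B, the GTPase nucleostemin (GNL3), RRS1, PPAN, WDR74 and NIP7. None of these changes passed the test, and the difference between roles was not tested.

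The noise of the comparison was read from the same 4 libraries, with control library 1 and knockdown library 2 set against control library 2 and knockdown library 1. The median size of the log2 difference over the 33 genes was 0.083 between the groups, 0.100 in this crossed arrangement and 0.158 between replicates 2 and 1. The group difference was the larger of the first 2 in 17 of the 33 genes, beside 10408 of 20105 promoters. Over all promoters the median size was 0.1039 between the groups, 0.0989 in the crossed arrangement and 0.1256 between replicates 2 and 1. By this median the group difference was slightly larger than the crossed one over all promoters, unlike in the 33 genes. The counts of 17 of 33 genes and 10408 of 20105 promoters show no such contrast, which was not tested. In 10 of the 33 genes the groups did not overlap, beside 30.4% of all promoters, so the share of 30.3% lies at the background. At the median, the promoter reads of ribosome biogenesis genes thus differed no more between the groups than in an arrangement that mixes them.

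Reads within the NFR window and at the +1 position were tested in the same way. Only 2 of the 33 genes, UBTF and RRP1B, reached a mean of 10 reads from dyads in the NFR window, since most windows were empty. Of 10230 promoters tested there, 0 were called by edgeR (0%) and 2.49% had an unadjusted p under 0.05. UBTF held 0 and 12 reads under control siRNA against 9 and 20 upon knockdown. RRP1B held 12 and 29 reads in the controls and none in either knockdown library. It reached the mean of 10 reads through the controls alone, so no p is given for it. This nucleosome had its dyad at -198 and -177 bp from the TSS in the controls, and the nearest upstream dyads upon knockdown were at -341 bp (21 reads) and -212 bp (33 reads). In the libraries numbered 2 the dyad thus stood on either side of the window's edge, at -177 and -212 bp, and the window's reads do not tell such a move from a loss. No fold is given, because the lists leave out nucleosomes of under 6 reads.

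In the zone of the +1 nucleosome, with dyads 51 to 250 bp downstream of the TSS, 30 of the 33 genes were tested among 16084 promoters. POLR1A, POLR1B and MYBBP1A had too few reads. EdgeR called 0 promoters (0%), with 2.14% under an unadjusted p of 0.05. WDR12 held 12 and 18 reads under control siRNA against 23 and 32 upon knockdown, and both knockdown libraries were above both controls. Its log2 change was 0.93 (unadjusted p 0.0152, adjusted p 1, edgeR's quasi-likelihood test with Benjamini-Hochberg adjustment). The share of all promoters without overlap of the groups in this zone was not computed. NOP16 had the largest drop in this zone, from 13 and 24 reads to 0 and 12. In knockdown library 1 its first dyad, of 11 reads, stood at 265 bp, beyond the zone. The 0 thus depends on the zone's edge, and no fold is given.

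Mean fuzziness over the promoter was tested with limma across 20044 promoters, of which 0 were called (0%) and 1.33% had an unadjusted p under 0.05. All 33 genes were tested. NOLC1 had the smallest p, with 35.9 and 37.5 bp under control siRNA against 29.8 and 34.8 bp upon knockdown, a change of -4.36 bp (SE 2.13, unadjusted p 0.0455, adjusted p 1 in limma). The position of the +1 dyad was tested with limma across 17393 promoters, of which 0 were called (0%) and 5.17% had an unadjusted p under 0.05. None of the 33 genes did, and the median change over them was 1 bp, beside 0.5 bp for all promoters. Changes ran from -77.5 bp to 78.5 bp, in POLR1B and NOP16, where 1 library had its first dyad beyond 250 bp.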

How the data were processed

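MNase-seq libraries of BE(2)C cells (2 with control siRNA, 2 with siRNA against MYCN) were grouped by sample title. Per the labels and the study's methods, the authors trimmed reads with Trim Galore (0.4.4), mapped them to hg19 with Bowtie2 (2.2.4), kept properly paired reads of good mapping quality, removed PCR duplicates and called nucleosomes in each library with Genetrack. CASAVA (1.9) is also named in the submitters' processing notes. The deposited read counts are whole numbers of read-pair midpoints per nucleosome of 147 bp, from 6 reads upward. The deposited fuzziness score is the SD of those midpoints in bp. The study's methods call occupancy normalized, but the values were whole numbers with unequal totals and were taken as unscaled. Totals are reads in called nucleosomes and not library depth, and a deeper library passes the minimum at more places. Intervals were not computed, because unlisted nucleosomes hide low counts. A GC correction was an alternative, since MNase prefers some bases.

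TSSs were those of GENCODE canonical transcripts on GRCh37, which 19881 of 20162 protein-coding genes had; otherwise the most upstream TSS was used. Counts were summed over the promoter (2 kb before to 1 kb after the TSS), over dyads up to 200 bp before or 50 bp after the TSS (NFR window), and over dyads 51 to 250 bp after it (+1 zone). The +1 dyad was the first from 7 to 300 bp downstream. Sums averaging 10 reads or more were tested with edgeR 4.0.16 (R 4.3.3; quasi-likelihood, TMM factors 0.994 to 1.007, group only). Fuzziness (promoters with 3 or more nucleosomes) and +1 positions were tested with limma 3.58.1. Adjusted p-values are Benjamini-Hochberg, over all promoters tested. The edgeR and limma steps were tested on simulated data with known changes. With 2 libraries a group, an exact permutation test cannot go below p = 0.333, so values with 1 number per library were not tested. Alternatives were DESeq2 1.42.0, other scalings, filters, windows, TSSs, a GC correction, a replicate block and leaving out each library. The members, the 2 comparison lists and the tests were chosen with earlier results of these data known, so counts over the members are descriptions.

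All 33 genes are named. Values in every library are given for the 5 with the smallest unadjusted p in promoter reads, the extremes of promoter reads and of +1 spread, any gene whose NFR state separates the groups, and NCL, NPM1, FBL, NOP56, POLR1B, UBTF and BOP1. The promoter sequence of one further member is not reported here.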

Additional observations from a re-analysis of the deposited data

How the results depend on the processing

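The count of promoters with called changes in reads was 0 in every alternative but one, and from 0 to 1 over the fits that left out a library; the 1 promoter, called without MYCN knockdown replicate 2, was none of the 33 genes. DESeq2 called 2 promoters for the NFR window and 16 for the +1 zone, where edgeR called 0. For promoter fuzziness the replicate block gave 3 calls and leaving out a library gave 0 to 10, with 8 without control replicate 2 and 10 without MYCN knockdown replicate 2. None of these calls was one of the 33 genes. The cause was not tested. The count of the 33 genes whose NFR state followed the groups was 0. It was 1 when 50% of a nucleosome inside the window sufficed (RRP1B), 1 at the most upstream TSS (NIP7), 2.5 with the replicate block (same-numbered libraries, mean of both pairs), and 0 to 2 when a library was left out, with 2 without control replicate 2 and 1 without MYCN knockdown replicate 1. In the replicate block and the leave-out counts a group can be 1 library, so a state follows the groups more easily. The shares of all promoters whose state followed the groups were not computed for these alternatives. Only 14 of the 33 windows were empty in all 4 libraries under the 50% rule and 16 at the most upstream TSS, in place of 25.

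Replicate numbers do not show that samples are paired, since no source says what same-numbered libraries share. Same-numbered libraries deviated together from their group means (r = 0.294 across promoters, which are not independent). The replicate block left promoter reads at 0 calls, with 1173 promoters under an unadjusted p of 0.05 in place of 633. Its smallest adjusted p over all promoters was 0.125 in place of 0.999 (edgeR's quasi-likelihood test). The block moved the members' median log2 change from -0.06 to -0.0586. That median was -0.0375 with the GC correction, -0.0015 with 1 kb on either side of the TSS and 0.051 without control replicate 2, where its sign turned. Log2 change and GC content were correlated across promoters (r = -0.196). For single genes, 12 of 33 had the same sign of the log2 change under all 13 settings, which reuse the same 4 libraries. BYSL, GAR1, HEATR1, NOB1, NOP56 and UTP20 were above 0, and GNL3, NCL, NHP2, NIP7, RRP12 and RRP1B below. NIP7 and RRP12 came close to 0, with highest values of -0.0015 and -0.0033. The share over all promoters was not computed, so the count is not read as a result about these genes. Of 460 alternative values, 416 stayed close to the main count or within the replicate spread of the main value, and 44 moved. A change of sign could count as staying, as it did for the members' median without control replicate 2. The members' median gap, averaged over libraries, was 278 bp, and 255.67 to 292.33 bp when a library was left out. Thinning to equal depth, added after the data were seen, gave 296.5 bp.

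Depth limits what can be seen. A nucleosome at the TSS of a member held 6 to 20 reads where it was listed, near the minimum of 6.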
